A study of Ovis aries with 18 samples.

Results

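The sheep genes known here by the Ensembl identifiers ENSOARG00020023900, ENSOARG00020009813 and ENSOARG00020023156, were followed across 18 RNA sequencing libraries. These are 3 of 20477 genes listed, and were picked because their level in soleus exceeded that in another muscle by more than almost any other gene did. There were 6 libraries each of longissimus lumborum (LL), which runs along the back in the loin, of psoas major (PM), the muscle sold as tenderloin, and of soleus (SOL), which lies in the calf and holds posture. The labels describe lamb skeletal muscle from the left side of the carcass, and give no treatment, breed, sex or age. The series' title speaks of long non-coding RNA, but every row carries an Ensembl gene identifier and none an assembled transcript. Whether the 3 genes code for protein is therefore not stated here.

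Skeletal muscle is built of slow and fast fibres. Slow fibres contract slowly, resist fatigue, burn fuel with oxygen and carry their own forms of the contractile and calcium-handling proteins, while fast fibres lean more on glycolysis. Soleus holds posture and is a classic slow muscle in many mammals, whereas the loin muscles hold many fast fibres. The fibre makeup of these samples was not measured, and the identifiers carry no names. None of the 3 matched the RefSeq table used, so that neither their function nor their sequence is given, and the markers of fibre and cell types could not be looked up. Levels are in FPKM (reads per kilobase of gene, scaled to a common library total), which allows genes of different length to be compared. Library totals ran from 10216739 to 14747118 reads, and whole reads were recovered from the FPKM values, so that the reads behind each value are known.

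Some libraries stood apart. In SOL 3, 11 genes abundant in LL and PM and nearly absent from the other 5 soleus libraries stood at 1.8% to 4.52% of their LL and PM level. These genes were picked for low levels in those 5 libraries, with SOL 3 exempt, and no such list was made for another soleus library. SOL 5 had the fewest genes detected of its muscle, 14181 against 14959 to 15421 in the other soleus libraries. LL 3 resembled the other libraries of its muscle least, with a mean correlation across genes of 0.872. The log2 differences from soleus are given with and without these 3 libraries, and the spread with and without each soleus library on which it turned. The likeness between genes further on was computed over all 18 libraries only.

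All 3 genes had their highest levels in soleus, and they differed widely in abundance there. ENSOARG00020023900 stood at 998 ± 574 FPKM in SOL, ENSOARG00020009813 at 102 ± 19.9 and ENSOARG00020023156 at 15.4 ± 6.34 (SD, n = 6 each). By mean soleus level they ranked 55, 643 and 4900 among the 20477 genes. In LL their ranks were 6441, 10314 and 15103, and in PM 11686, 11801 and 13642. Every soleus library lay above every LL and every PM library for all 3 genes. This held for 4.25% of the 15434 genes tested, but the genes were chosen on these contrasts and nothing is read from that count. The share was 7.25% against LL alone and 6.75% against PM alone. In bulk muscle, fewer cells that make a transcript and less of it per cell cannot be told apart.

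**Figure D1:**
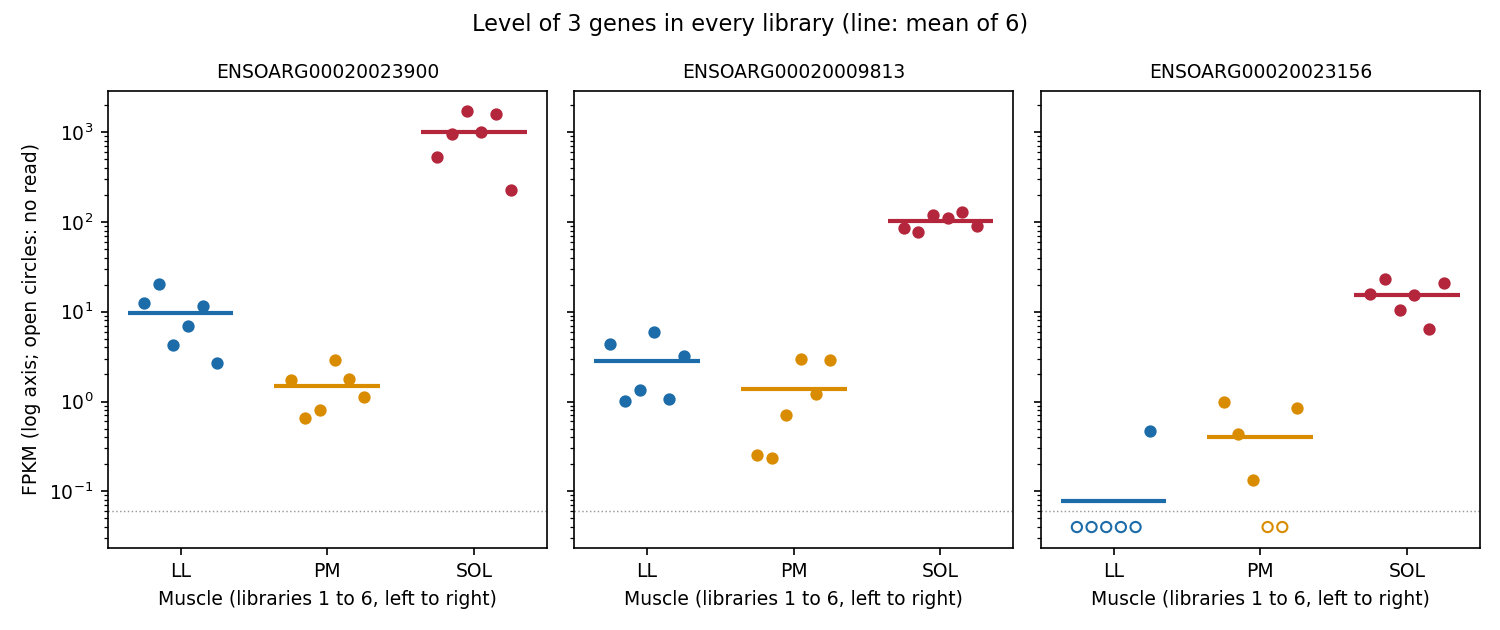
FPKM on a log axis of the 3 genes in each of the 18 libraries, by muscle and in order of library number, with a line at the mean of 6. Open circles below the dotted line are libraries with no read. The soleus libraries lie above all others in each panel, and ENSOARG00020023156 has no read in 5 LL and 2 PM libraries.

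ENSOARG00020023900 had the highest mean level of the 3 in every muscle. In PM it led by little, and it lay below ENSOARG00020009813 in LL 6, PM 4 and PM 6. In soleus it stood at 525 FPKM in SOL 1, 953 in SOL 2, 1705 in SOL 3, 1008 in SOL 4, 1572 in SOL 5 and 227 in SOL 6. SOL 3 and SOL 5 were thus the highest and SOL 6 the lowest, a 7.52-fold span. In LL the values were 12.5, 20.4, 4.30, 6.85, 11.5 and 2.66 FPKM for libraries 1 to 6. In PM they were 1.72, 0.658, 0.813, 2.90, 1.77 and 1.12 FPKM in the same order. The gene was thus highest in soleus, lower in LL and lowest in PM, and LL and PM overlapped only in that LL 6 lay just below PM 4.

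The difference in ENSOARG00020023900 was largest between soleus and PM. On the log2(FPKM + 0.1) scale, SOL exceeded PM by 9.16 (SE 0.49) and LL by 6.69 (SE 0.49), where the medians over all genes tested were 0.15 and 0.24. The recovered reads numbered 62003 over the 6 soleus libraries, 550 over LL and 86 over PM. Per library total, soleus held 681 times the reads of PM (exact 95% counting interval 551 to 851) and 102 times those of LL (93.5 to 111). Intervals of this kind cover counting error only, as reads without molecular identifiers are not independent molecules. Among same-numbered libraries the ratio of SOL to PM ran from 203 in number 6 to 2097 in number 3. Without LL 3, SOL 3 and SOL 5 together, SOL exceeded PM by 8.67 and LL by 6.02 on the log2 scale.

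ENSOARG00020009813 was the steadiest of the 3 in soleus. It stood at 86.5 FPKM in SOL 1, 77.9 in SOL 2, 119 in SOL 3, 111 in SOL 4, 128 in SOL 5 and 90.7 in SOL 6. The highest soleus library was only 1.64 times the lowest. In LL it stood at 4.31, 1.01, 1.34, 5.87, 1.07 and 3.21 FPKM for libraries 1 to 6. In PM it stood at 0.254, 0.237, 0.702, 2.98, 1.21 and 2.92 FPKM. LL libraries 1, 4 and 6 and PM libraries 4 and 6 were the high ones of their muscles, and the ranges of LL and PM overlapped. Library number 2 had the lowest FPKM in all 3 muscles for this gene, but LL 2 and LL 5 tied at 20 reads, and PM 1 and PM 2 at 5.

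The recovered reads of ENSOARG00020009813 numbered 12417 in SOL, 308 in LL and 154 in PM. SOL exceeded PM by 6.62 (SE 0.53) and LL by 5.43 (SE 0.53) on the log2(FPKM + 0.1) scale. Per library total the ratio of reads was 76.1 to PM (exact 95% counting interval 64.9 to 89.8) and 36.4 to LL (32.5 to 40.9). The lowest soleus level, 77.9 FPKM, was still far above the highest level elsewhere, 5.87 FPKM in LL 4. Without LL 3, SOL 3 and SOL 5 the log2 differences were 6.47 to PM and 5.14 to LL.

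ENSOARG00020023156 had few or no reads outside soleus. In soleus it stood at 15.9 FPKM in SOL 1, 23.3 in SOL 2, 10.4 in SOL 3, 15.3 in SOL 4, 6.38 in SOL 5 and 21.0 in SOL 6. SOL 2 and SOL 6 were the highest, and SOL 5 and SOL 3 the lowest. In LL only LL 6 had reads, 7 of them or 0.468 FPKM. A count of 0 in the other 5 LL libraries allows a level of up to 0.174 to 0.219 FPKM each (3 reads), and the upper ends of the exact two-sided 95% counting intervals, as plotted, are 0.214 to 0.269 FPKM. In PM the reads numbered 17, 8, 2, 0, 0 and 13 for libraries 1 to 6, which is 0.992, 0.434, 0.134, 0, 0 and 0.838 FPKM. The soleus libraries, with 126 to 396 reads, did not come near these levels.

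The size of the soleus rise of ENSOARG00020023156 depended on how low values were treated. On the log2(FPKM + 0.1) scale SOL exceeded LL by 6.74 (SE 0.64) and PM by 5.43 (SE 0.64). With a pseudocount of 1 FPKM the differences were 3.84 and 3.50, and with 0.01 FPKM they were 9.54 and 6.74. Over all libraries SOL had 1590 reads, LL 7 and PM 40. The ratio of reads per library total was 205 to LL (exact 95% counting interval 99.2 to 511) and 37.5 to PM (27.4 to 52.7). The ratio to LL rests on the 7 reads of LL 6, without which LL has no read and the log2 difference from LL is 7.15. Without LL 3, SOL 3 and SOL 5 the log2 differences were 7.04 to LL and 5.83 to PM.

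The name of largest soleus rises held in part. In SOL against PM, ENSOARG00020023900 ranked 1 and ENSOARG00020009813 ranked 2 of 15434 genes by log2 difference. The gene that followed, just outside that pair, had a log2 difference of 5.74, and ENSOARG00020023156 came next at rank 4. In SOL against LL, ENSOARG00020023156 ranked 2, behind a gene not followed here with a log2 difference of 8.19 and just ahead of another at 6.72. ENSOARG00020023900 ranked 4 and ENSOARG00020009813 ranked 12 in that contrast. The order depended on the pseudocount. With 1 FPKM, ENSOARG00020023156 fell to rank 25 against LL and 12 against PM. With 0.01 FPKM, ENSOARG00020023900 fell to rank 35 and ENSOARG00020009813 to rank 91 against LL, and against PM they ranked 1 and 6. The rank of ENSOARG00020023900 against PM was 1 at each of the 3 pseudocounts.

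Soleus libraries disagreed far more on ENSOARG00020023900 than on genes of like abundance. The SD of its log2 level over the 6 soleus libraries was 1.09, where the median of 81 other genes within 2-fold of its mean level was 0.27. None of those 81 genes had an SD as large. Its coefficient of variation was 57.5%, against a median of 19.2%. Counting error is small at this depth, since the lowest library, SOL 6, held 2272 reads and 217 to 236 FPKM by its exact 95% counting interval. Much of the spread came from SOL 6. Without it the SD was 0.68, and 2 of 77 genes of like level had an SD as large. Without SOL 3 it was 1.08 and without SOL 5 it was 1.11. After scaling each library by the median ratio of its genes it was 1.17.

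ENSOARG00020023156 also varied more than most genes of its level. Its SD in soleus was 0.69, against a median of 0.31 for 5205 genes within 2-fold of its mean, and 94.7% of these had a lower SD. Without SOL 5, its lowest library, the SD was 0.45 and 83.1% had a lower one. ENSOARG00020009813 lay closer to the middle. Its SD was 0.28, against a median of 0.24 for 1159 genes of like level, with 65.1% below it. After median-ratio scaling its SD was 0.40, with 84.0% below it. The spread of the 3 genes is described here without a test.

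**Figure D2:**
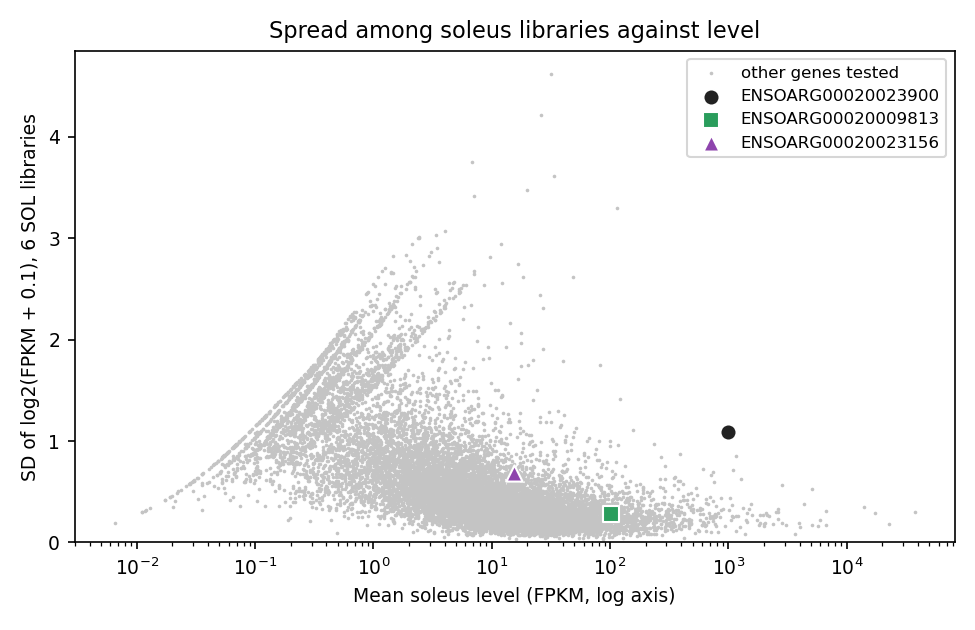
SD of log2(FPKM + 0.1) over the 6 soleus libraries against mean soleus FPKM (log axis) for the genes tested, each a grey dot, with the 3 genes marked. ENSOARG00020023900, with an SD of 1.09 at 998 FPKM, lies above all genes of like level, while ENSOARG00020009813, at 0.28, lies within the cloud.

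In LL and PM the spread was read against level in the same way. For ENSOARG00020023900 the SD was 1.07 in LL, above that of 94.2% of 5054 genes of like level, and the reads ran from 23 in LL 6 to 203 in LL 2. In PM its SD was 0.74, above that of 53.8%. For ENSOARG00020009813 the SD was 1.06 in LL and 1.42 in PM, above that of 67.9% and 83.6% of genes of like level. For ENSOARG00020023156 it was 1.02 in LL and 1.54 in PM, above that of 53.1% and 79.3%. Its SD in LL is set by LL 6 alone, the only LL library with reads. The gene and the median of genes of like level there had the same coefficient of variation, 244.9%. Its place in LL therefore says nothing on spread. At this depth counting error is large for the last gene.

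The 3 genes did not all rise and fall together among soleus libraries. ENSOARG00020009813 and ENSOARG00020023156 went opposite ways over the 6 libraries (Pearson r = -0.89, exact permutation p = 0.0139, 0.0417 after adjustment over 3 pairs; Spearman rho = -0.94, exact permutation p = 0.0167, 0.050 adjusted; two-sided). SOL 5 and SOL 3 had the highest levels of the first and the lowest of the second, and SOL 2 had the lowest of the first and the highest of the second. Without SOL 2 and SOL 5, the libraries farthest from the median of the first gene, r was -0.77. After median-ratio scaling r was -0.86, with an exact permutation adjusted p of 0.050, which is not under the threshold. Leaving out each library in turn gave an r of -0.94 to -0.85, and with 5 libraries left the threshold was almost out of reach for this test.

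The other pairs did not pass, which with 6 libraries does not show that they moved independently. ENSOARG00020023900 followed ENSOARG00020009813 with r = 0.62 (exact permutation p = 0.20, adjusted 0.20) and rho = 0.71 (exact permutation p = 0.14, adjusted 0.14) over 6 soleus libraries. Against ENSOARG00020023156 it had r = -0.67 (exact permutation p = 0.15, adjusted 0.20) and rho = -0.77 (exact permutation p = 0.10, adjusted 0.14). Without SOL 1 and SOL 6, its libraries farthest from the median, r was 0.77 and -0.85. The libraries at the ends also differed in measures of the libraries themselves. SOL 5, lowest for ENSOARG00020023156 and highest for ENSOARG00020009813, had the fewest genes detected, 14181. SOL 2, at the other end for both genes, had the most, 15421. The libraries between did not keep this order. SOL 4 had 14959 and SOL 3 had 15149, yet SOL 3 lay nearer to SOL 5 than SOL 4 did for both genes. SOL 3, with its trace of transcripts abundant in LL and PM, was the highest soleus library for ENSOARG00020023900, a gene that is low in both of those muscles. The part of these library traits in the result was not tested.

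**Figure D3:**
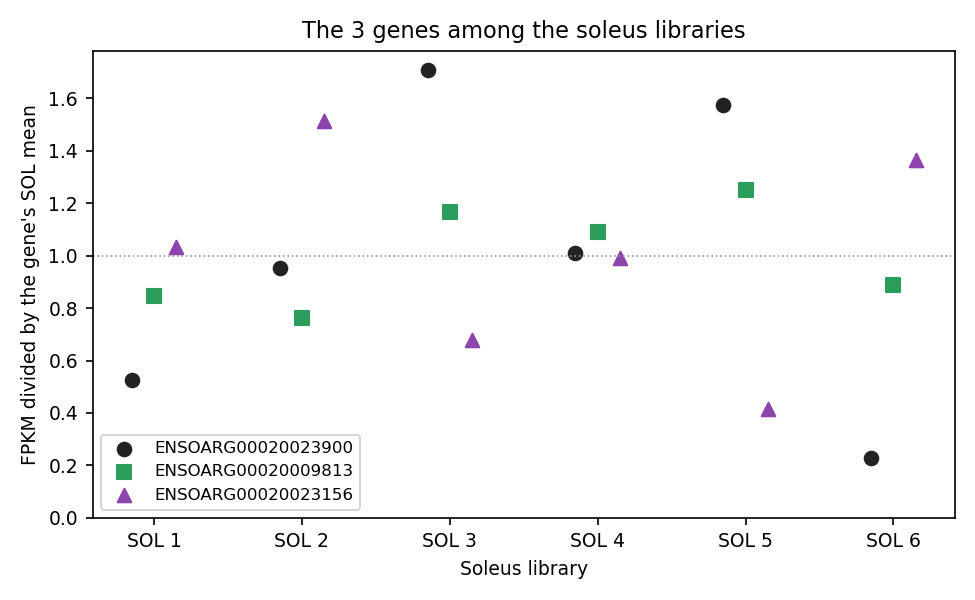
FPKM of each gene in each soleus library divided by the gene's mean over the 6 soleus libraries, with a dotted line at 1. In SOL 3 and SOL 5 the first 2 genes lie above 1 and ENSOARG00020023156 below it, at 0.678 and 0.414. In SOL 6 the order is turned, with ENSOARG00020023900 at 0.227 and ENSOARG00020023156 at 1.37.

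LL and PM, where all 3 genes were low, were then compared with each other. Of the 3 genes, 1 was called at an adjusted p under 0.05, where 229 of 15434 genes or 1.48% were called. The libraries of LL and PM overlapped for all 3, and 1.33% of genes had no overlap. This contrast was not the one the genes were chosen on, but it shares its libraries with those contrasts. A low PM level helped to bring in ENSOARG00020023900 and ENSOARG00020009813, and a low LL level helped to bring in ENSOARG00020023156. The direction of each difference is the one that this choice favours, and the p-values are not independent of it.

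ENSOARG00020023900 was lower in PM than in LL. Its level was 9.71 ± 6.53 FPKM in LL against 1.50 ± 0.83 in PM (SD, n = 6 each), with a log2 difference of PM from LL of -2.48 (SE 0.49, limma adjusted p = 0.011). A change as large was seen for 77 of 15434 genes, this one included, and the median over all genes was 0.06. By reads per library total LL exceeded PM 6.69-fold (exact 95% counting interval 5.32 to 8.50). The call was lost with limma's voom on the recovered reads, at a log2 difference of -2.58 (SE 1.41, adjusted p = 0.466). Over the other alternatives the adjusted p reached at most 0.0341, without PM 2.

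ENSOARG00020009813 and ENSOARG00020023156 did not pass between LL and PM. For ENSOARG00020009813 the level was 2.80 ± 2.01 FPKM in LL against 1.38 ± 1.27 in PM (SD, n = 6 each), a log2 difference of PM from LL of -1.19 (SE 0.53, limma adjusted p = 0.345). For ENSOARG00020023156 it was 0.078 ± 0.191 FPKM in LL against 0.40 ± 0.43 in PM, a difference of the other sign, 1.30 (SE 0.64, limma adjusted p = 0.405). The reads per library total were 5.46 times as many in PM as in LL, with an exact 95% counting interval of 2.42 to 14.5, which leaves out the spread between libraries. Without LL 6, the single LL library with reads, the log2 difference was 1.72 (limma adjusted p = 0.156). LL 6 also had the most genes detected of its muscle, 14552, against 12704 to 14242 in the other LL libraries. The PM libraries had 14647 to 14942, and of these PM 4 and PM 5, with no read of this gene, had 14741 and 14866. The part of genes detected in the difference was not tested. The adjusted p ranged from 0.191 to 0.592 over the alternatives for the first gene and from 0.156 to 0.697 for the second.

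**Figure D4:**
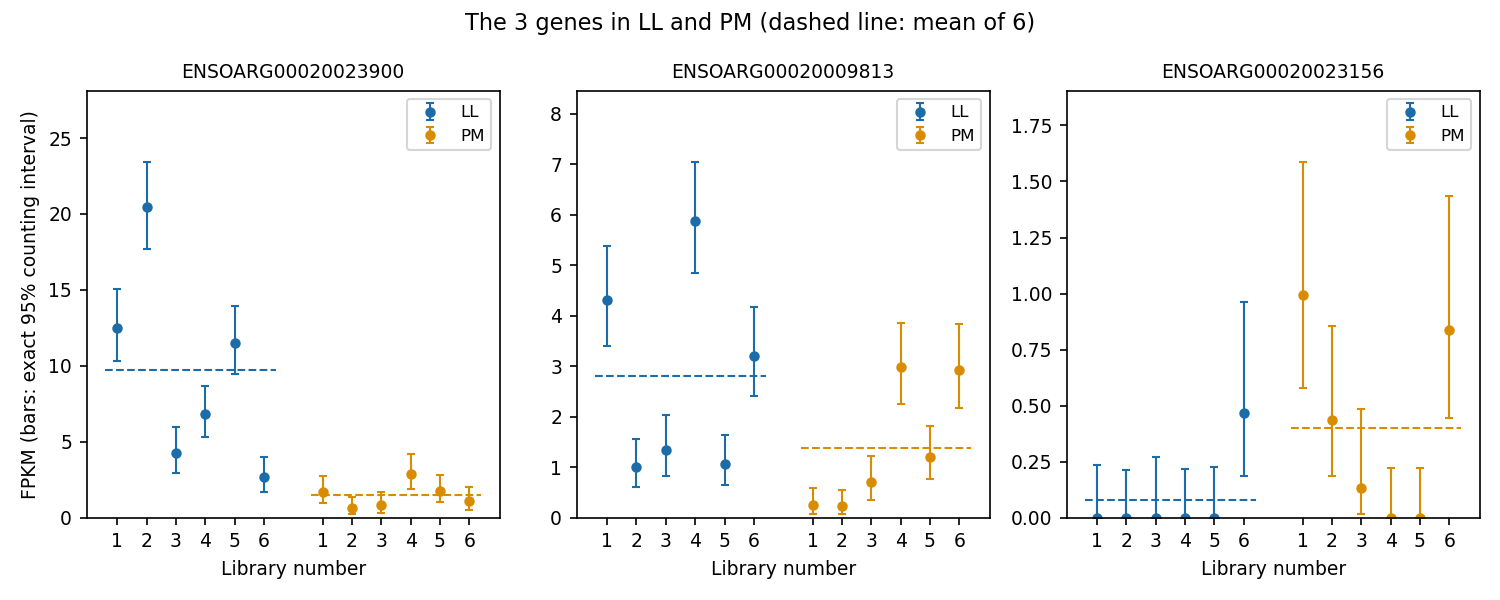
FPKM of the 3 genes in LL and PM libraries 1 to 6, with exact 95% counting intervals as bars and a dashed line at the mean of 6. LL lies above PM for ENSOARG00020023900 save for LL 6, the 2 muscles overlap widely for ENSOARG00020009813, and ENSOARG00020023156 has reads in 1 LL and 4 PM libraries.

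By mean FPKM, ENSOARG00020023900 and ENSOARG00020009813 had the order soleus, LL, PM, and ENSOARG00020023156 had the order soleus, PM, LL. For the last 2 of these genes the difference between LL and PM did not pass after adjustment over all genes tested, so that the order of the lower muscles is not settled. For ENSOARG00020023900 it rests on a call that voom did not give and on a PM level that helped to choose the gene. Within LL and PM, the abundance order of the 3 genes by mean FPKM was the same as in soleus, but single libraries departed from it. In PM the means of ENSOARG00020023900 and ENSOARG00020009813 lay close, at 1.50 ± 0.83 and 1.38 ± 1.27 FPKM (SD). ENSOARG00020009813 exceeded ENSOARG00020023900 in PM 4, PM 6 and LL 6. ENSOARG00020023156 exceeded ENSOARG00020009813 in PM 1 and PM 2. The mean FPKM in soleus was 667 times that in PM for ENSOARG00020023900, 73.8 times for ENSOARG00020009813 and 38.5 times for ENSOARG00020023156. Over LL the ratios were 103 for ENSOARG00020023900, 36.5 for ENSOARG00020009813 and 197 for ENSOARG00020023156. The last of these rests on the 7 reads of LL 6.

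Other genes followed the same pattern across the 18 libraries. Likeness was measured as Pearson's r of log2(FPKM + 0.1) over 18 libraries among 13560 genes averaging 0.5 FPKM or more, and it is a description that mostly reflects the high soleus level. Most like ENSOARG00020023900 was ENSOARG00020021665 (r = 0.972), at 7.14 ± 1.48 FPKM in SOL, 1.26 ± 0.62 in LL and 0.58 ± 0.19 in PM (SD, n = 6 each). It shared the order soleus, LL, PM over a much smaller range of levels, and picking by likeness over these libraries favours a shared order. ENSOARG00020004681 followed (r = 0.949). In all, 31 genes reached an r of 0.9 with ENSOARG00020023900, and ENSOARG00020009813 was 8th among them (r = 0.93).

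ENSOARG00020009813 was most like ENSOARG00020002131 (r = 0.946), a gene at 313 ± 37.6 FPKM in SOL, 153 ± 19.6 in LL and 123 ± 7.41 in PM (SD, n = 6 each), and next like ENSOARG00020023900. In all, 11 genes reached an r of 0.9 with it. ENSOARG00020023156 was most like ENSOARG00020006417 (r = 0.962), at 19.9 ± 4.04 FPKM in SOL, 4.10 ± 1.15 in LL and 5.69 ± 1.73 in PM, and next like ENSOARG00020004146 (r = 0.959). Both of these had higher means in PM than in LL, as did ENSOARG00020023156 itself. Picking genes by likeness over these libraries favours a shared order, which is not settled for ENSOARG00020023156. With it, 104 genes reached an r of 0.9, while its r was 0.815 with ENSOARG00020009813 and 0.787 with ENSOARG00020023900.

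Once the muscle means were taken out, likeness was lower and fell on other genes. The deviations of ENSOARG00020023900 from its muscle means were most like those of ENSOARG00020020073 (r = 0.823 over 18 libraries). Those of ENSOARG00020009813 were most like those of ENSOARG00020024575 (r = 0.849), and those of ENSOARG00020023156 most like those of ENSOARG00020015086 (r = 0.862). No gene reached an r of 0.9 on this measure. Among the 3 genes themselves the deviations gave an r of 0.116 for ENSOARG00020023900 with ENSOARG00020009813, -0.531 for ENSOARG00020023900 with ENSOARG00020023156 and -0.236 for ENSOARG00020009813 with ENSOARG00020023156. The last value is weaker than the -0.89 seen within soleus, where deviations in LL and PM do not enter. Reads in LL and PM were few, and their part in this difference was not tested.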

How the data were processed

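Total RNA was depleted of ribosomal RNA and copied with random hexamers, and HISAT2 (2.2.1) aligned the reads and StringTie (2.2.0) assembled transcripts, per the labels' protocols. The submitters' processing notes also name DESeq, with no role. For the genome build, annotation, counting program and strand setting, the entry is: not given in the sources used here. In the table deposited by the authors, reads per gene had been scaled to FPKM, although no unit is named. Every positive value lay within 0.05 of a whole number of reads, given 1 whole length per gene and 1 whole total per library. The length taken for a gene was the smallest that gave whole reads in every library. Reads recovered this way were checked on simulated data, for genes with reads in at least 12 libraries (100% of 4947 genes exact). ENSOARG00020023156 has reads in fewer libraries than that, so the check does not cover genes like it.

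The 15434 genes averaging 0.1 FPKM or more were fitted in limma (3.58.1, under R 4.3.3) on log2(FPKM + 0.1). The model had a variance trend, a term for each muscle and 15 residual degrees of freedom, and two-sided p-values were adjusted over all genes by Benjamini-Hochberg. Soleus contrasts are given without p, as the genes were chosen on them. Correlations used exact permutation tests (scipy 1.17.1, 3 pairs). Counting intervals are exact Poisson or binomial. Genes named for likeness are the 2 with the highest r over 18 libraries and the 1 with the highest r of deviations from muscle means. The 3 genes, the alternatives and the marker lists, which had no members for want of names, were chosen with earlier results of these data known.

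Deviations from muscle means of same-numbered SOL and PM libraries correlated across genes (r = 0.13 to 0.23, all above 0.1), which met the rule for taking numbers as pairs. For LL the lowest r was 0.09 with PM and 0.086 with SOL, which did not. Differently numbered libraries reached at most 0.017 for SOL and PM, 0.007 for LL and PM and 0.052 for LL and SOL. Same-numbered libraries were thus the more alike in all 3 pairs of muscles, those with LL included. The reported model has no block, and the alternative with a block applies it to all 3 muscles. The series' design text does not tie a number to a carcass, so a p-value sets a difference against the spread among these libraries, which may be technical.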

Additional observations from a re-analysis of the deposited data

Results flagged for a closer look

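In 9 sets of 6 libraries, 3 genes in each of 3 muscles, the highest and the lowest library were compared with the rest by Dixon's test. Chance flags about 1 in 20 sets of normally distributed values. One library stood out: LL 6 for ENSOARG00020023156, at 0.468 FPKM, which is 7 reads, against 0 in the other 5 LL libraries. Where all libraries but 1 are at 0, this test always singles out that library. The low value of ENSOARG00020023900 in SOL 6, 227 FPKM, did not.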

How the results depend on the processing

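Between PM and LL, 80 of 81 values kept their direction and their side of the threshold. These came from 27 alternatives for each gene: other pseudocounts, filters, scaling, voom, the replicate block, only the libraries compared, and left-out libraries. The count overstates stability. Filters, the block, only the libraries compared and a left-out soleus library cannot change the log2 difference itself, only its error. ENSOARG00020009813 and ENSOARG00020023156 were not called in the reported model or in any alternative. The exception among the 81 was ENSOARG00020023900 with voom (log2 difference -2.58, limma adjusted p = 0.466). The cause was not tested. With the replicate block, which takes numbers as pairs, the difference was -2.48 (limma adjusted p = 0.00467), and the block changed no call of the 3 genes, with 415 calls over all genes against 229. Leaving out each library gave -2.78 to -2.20 for this gene.

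Of the soleus differences only those of ENSOARG00020023156 moved by more than the spread between libraries. Against LL they were 3.84 with a pseudocount of 1, 9.54 with 0.01 and 8.14 with voom. Against PM they were 3.50 and 6.74 with pseudocounts of 1 and 0.01. Few reads in LL and PM limit this gene. The difference of ENSOARG00020009813 from PM came just short of moving by that spread, at 5.58 with a pseudocount of 1 against 6.62 in the reported model. The correlation of ENSOARG00020009813 with ENSOARG00020023156 in soleus kept its sign throughout. After median-ratio scaling (-0.86) the adjusted p was 0.050, not under the threshold. Without each library in turn (-0.94 to -0.85) the adjusted p was 0.075 or more, but 5 libraries leave the threshold almost out of reach, so this says nothing on stability. Without the 2 libraries farthest from the median (-0.77) no test was run. Median-ratio scaling lowered the median log2 difference over all genes of SOL against LL from 0.24 to 0.12 and of SOL against PM from 0.15 to 0.03.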
